A study of Mus musculus with 6 samples.

Results

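Collagens are the main structural proteins of the extracellular matrix. Their chains wind around each other into a helix built from repeats of glycine followed by other residues, and the family is divided by how the helices assemble. Fibrillar collagens form the cables of connective tissue, collagen IV forms the sheet of the basement membrane, transmembrane collagens are anchored in the cell surface, and smaller groups decorate fibrils or form beaded filaments. In muscle a basement membrane surrounds every fibre, and at the neuromuscular junction (NMJ) the same sheet runs through the synaptic cleft. The proteins made from Col4a3, Col4a4 and Col4a5 are known to be concentrated in that synaptic part, and collagen XIII, a transmembrane collagen, is known from mice to be needed for the junction to mature.

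The genes described here are those on the array whose annotation gave exactly 1 symbol of the form Col, number, a, number. There were 39 of them, each with 1 row, among 14860 named genes and 23332 rows in all. They fell into 11 fibrillar, 8 basement membrane, 4 transmembrane and 16 other collagens. Of 44 collagen genes in the RefSeq table, Col6a4, Col6a5, Col19a1, Col22a1 and Col28a1 had no such row and were not analysed here. Colq, whose product anchors acetylcholinesterase by a collagen tail, is not matched by the rule either, and it had no row with exactly 1 symbol. The samples were tibialis anterior (TA) muscle of ICR mice, an outbred strain, at 16 weeks of age, with no other genotype or treatment in the labels. In 1 group of 3 arrays the material was laser-captured at NMJs found by acetylcholinesterase staining, and in the other group of 3 arrays it was an equal area of the same fibres away from NMJs. The labels give 9973 junctions in all and not how many animals were used or pooled, so p-values measure only the spread between these samples. All values are log2 values from RMA, the authors' background correction, normalization and summary of probes, on Affymetrix exon arrays.

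Levels in these captured pieces are those of bulk tissue, in which fewer cells of a type and less RNA per cell cannot be told apart. The captured cells include the fibre and whatever lay beside it. Of 10 fibre markers 7 had a row, of which 5 were lower in NMJ regions and 2 were not called, and 3 were lower in each fit that left out an array, with the replicate block or after quantile normalization. Ckm, muscle creatine kinase, had mean log2 values of 12.52 in NMJ and 13.02 in non-NMJ regions, and Mb, myoglobin, which was not called, 12.67 and 12.69. All 9 markers of the synaptic region were higher in NMJ regions. Of all rows 14.4% were called higher there and 8.63% lower. Among the 9, Ache encodes the acetylcholinesterase whose staining located the NMJs, so its rise is no independent result. The median log2 value over all rows was 4.37 to 4.38 on the non-NMJ arrays and 4.49 to 4.53 on the NMJ arrays. No detection calls were used, so rows near or below these medians have an unknown level over background.

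Sequences upstream of collagen genes are shown for members of the groups with the larger differences between the regions, and because collagen IV genes lie in head-to-head pairs, each pair reading away from a shared stretch. They are from the RefSeq promoter table (GRCm38.p6), cut to the bases that lie outside every annotated gene. Capitals mark the CCAAT box, the TATA box (TATAAA), the GC box (GGGCGG) and the N-box (CCGGAA), or their reverse complements. The first 3 belong to genes that were at least 2-fold higher in NMJ regions, 1 each of the fibrillar, collagen VI and basement membrane groups. They lie at chr6:4505368-4505617 (plus strand), chr10:76726045-76726294 (minus strand) and chr10:77166531-77166780 (minus strand).
Col1a2: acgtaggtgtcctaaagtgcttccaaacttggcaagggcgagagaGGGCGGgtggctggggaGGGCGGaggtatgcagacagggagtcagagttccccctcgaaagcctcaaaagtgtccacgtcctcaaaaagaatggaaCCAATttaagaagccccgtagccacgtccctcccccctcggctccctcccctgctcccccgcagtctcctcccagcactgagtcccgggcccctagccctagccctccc
Col6a1: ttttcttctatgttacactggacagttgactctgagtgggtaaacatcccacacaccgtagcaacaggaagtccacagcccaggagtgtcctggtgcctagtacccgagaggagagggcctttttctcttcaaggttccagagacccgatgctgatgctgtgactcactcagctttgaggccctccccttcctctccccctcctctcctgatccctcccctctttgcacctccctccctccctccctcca
Col18a1: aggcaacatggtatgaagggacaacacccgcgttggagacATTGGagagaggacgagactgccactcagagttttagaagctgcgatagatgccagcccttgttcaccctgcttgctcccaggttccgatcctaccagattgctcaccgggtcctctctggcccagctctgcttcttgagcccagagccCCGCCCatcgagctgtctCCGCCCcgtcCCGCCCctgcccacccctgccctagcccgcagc
The other two come from both ends of the stretch between Col4a5 and Col4a6, of which Col4a5 was higher in NMJ regions and Col4a6 was not called. They lie at chrX:141475169-141475369 (plus strand) and chrX:141474096-141474326 (minus strand).
Col4a5: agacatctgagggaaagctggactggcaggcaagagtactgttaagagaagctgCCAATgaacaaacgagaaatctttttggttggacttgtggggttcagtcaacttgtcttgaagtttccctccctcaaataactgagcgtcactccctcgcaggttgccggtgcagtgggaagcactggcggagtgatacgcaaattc
Col4a6: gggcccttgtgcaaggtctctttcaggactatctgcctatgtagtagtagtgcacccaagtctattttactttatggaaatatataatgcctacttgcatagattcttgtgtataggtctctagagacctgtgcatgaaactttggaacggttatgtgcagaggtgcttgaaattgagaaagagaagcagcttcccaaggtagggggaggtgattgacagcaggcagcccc

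The printed Col1a2 stretch holds 2 GC boxes and 1 CCAAT box, and that of Col18a1 holds 3 and 1, whereas that of Col6a1 holds 0 of the 4 motifs. Motifs were also searched on both strands in whole windows of 300 bases, 250 before and 50 after each annotated start. Of the 39 genes 31 had 34 such windows. The N-box CCGGAA, a site that ETS factors bind in genes of synaptic nuclei, was in 0 of these 34 windows and in 14.9% of 32851 windows of all genes. The E-box CANNTG, bound by myogenic factors, was in 17 of the 34 collagen windows and in 72.3% of all, and the GC box in 61.8% of collagen windows and 35.7% of all. The CCAAT box was in 35.3% of collagen windows and 37.4% of all, and the TATA box in 14.7% and 13.6%. Matches of different motifs can overlap by some letters and were counted separately. By call, 12 of 19 genes that were higher held a GC box, against 8 of 12 that were not called. A match or its absence in these windows is a description of letters and says nothing of binding.

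Collagen genes were mostly higher in NMJ regions. Of 39 genes, 23 rose, 0 fell and 16 were not called, with limma's test at an adjusted p under 0.05 over all rows. At an unadjusted p under 0.05 in limma, 1 of the 39 was lower, Col24a1. Of all 23332 rows, 14.4% were called higher in NMJ regions and 8.63% lower. The median log2 difference, NMJ minus non-NMJ, was 0.52 over the 39 genes and -0.01 over all rows. At least 2-fold higher were 12 of the 39, against 5.51% of all rows, and the 3 NMJ arrays lay above all 3 non-NMJ arrays for 27 of the 39, against 22.8% of all rows. Calls also depend on signal. Of the 28 collagen genes whose mean lay above the median row, 19 rose, where 23.7% of such rows did, and of the 11 below it 4 rose, where 5.06% did.

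**Figure D1:**
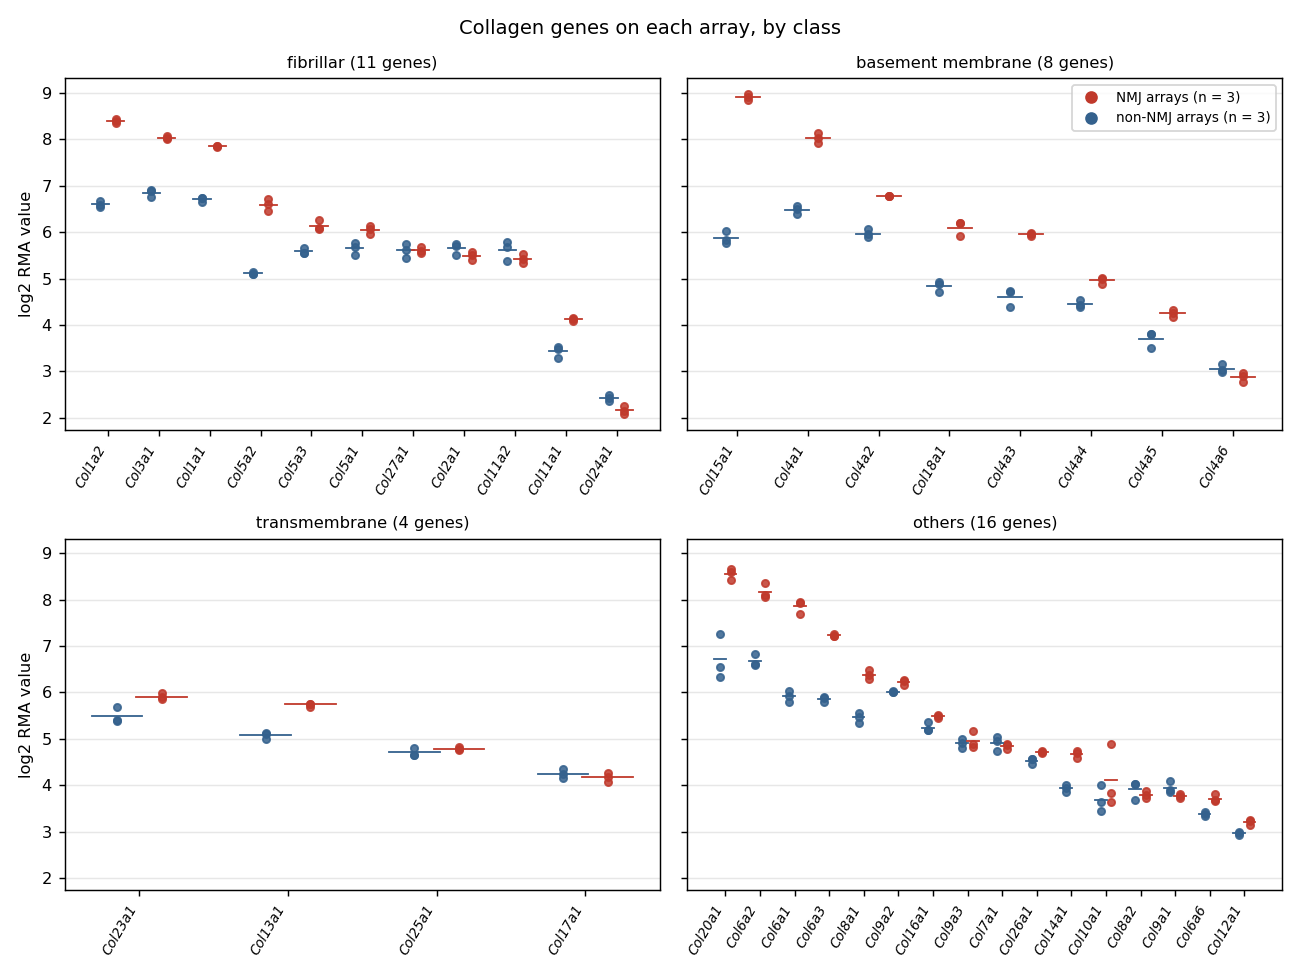
Log2 RMA value of each of the 39 collagen genes on each array, with NMJ arrays in red, non-NMJ arrays in blue and a line at the mean of each region (n = 3). Genes are ordered by their NMJ mean within a class, and levels of different genes are not comparable because their probes differ. In Col15a1 the NMJ arrays lie at 8.86 to 8.97 and the non-NMJ arrays at 5.77 to 6.03.

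Markers of other cells moved with the regions too. Of 15 measured fibroblast markers that are not collagens, 7 rose and 0 fell, with a median log2 difference of 0.35, and their summed signal on the linear scale was 9712 to 10126 on NMJ arrays and 3711 to 4018 on non-NMJ arrays. Most of that sum came from Dcn and Lum, with mean log2 values of 12.39 and 11.25 in NMJ and 10.78 and 8.83 in non-NMJ regions. Pdgfra, a receptor that defines fibroblasts, was 5.39-fold higher, while Cd34, Pi16 and Mfap5 were not called. The count of fibroblast markers that rose was 4 without NMJ replicate 1 and 5 to 7 without another array, and their median was 0.21 after median centring and 0.12 after quantile normalization. All 8 measured Schwann cell markers rose, with a median of 2.28 and summed signals of 2064 to 2191 against 288 to 338. The count was 7 in each fit that left out an array, where Ngfr was not called. Ngfr was also lost after median centring or quantile normalization and with the replicate block or an intensity trend. Of 5 perineurial markers 2 rose, with sums of 329 to 340 against 205 to 231. Cldn1, a tight junction gene of that sheath, was 8.21-fold higher, from a non-NMJ mean of 3.07, below the arrays' medians. Slc2a1, Tjp1 and Krt19 were not called, with log2 differences of 0.34, 0.30 and -0.05. Of 12 endothelial markers 6 fell and 0 rose (1195 to 1263 against 1468 to 1616), and of 10 pericyte and smooth muscle markers 6 fell and 1 rose (1639 to 1724 against 2503 to 2782). The endothelial count was 5 without non-NMJ replicate 3, 3 without non-NMJ replicate 1, 2 without any other array, 4 with the replicate block and 9 after quantile normalization. For pericyte and smooth muscle markers, 4 fell without NMJ replicate 1, 2 or 3 or non-NMJ replicate 2. There, 5 fell without non-NMJ replicate 3 and 7 after quantile normalization. The 1 that rose, Cspg4, was 2.97-fold higher (limma adjusted p = 0.00133) and was called in every alternative fit. Of 9 macrophage markers 3 rose and 1 fell (547 to 636 against 430 to 475). The 1 that fell, Cd68, was not called in any fit that left out an array. Mrc1, which rose, was 3.61-fold higher (limma adjusted p = 3.09e-04) and was called in every alternative fit. The count of macrophage markers that rose was 4 without NMJ replicate 3, 2 without non-NMJ replicate 1 or 2 and 1 without any other array. None of 6 tenocyte markers (104 to 117 against 104 to 125) and none of 5 chondrocyte markers (161 to 176 against 126 to 163) was called. These values have no zero, so no marker can be said to be absent, and the part of any of these cells in the collagen differences was not tested.

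The fibrillar class held 7 genes that rose, 0 that fell and 4 not called, with a median log2 difference of 0.54. The shares of all rows, 14.4% higher and 8.63% lower, stand beside this and every class count below. After quantile normalization 5 rose and the median was 0.28. Col1a2 encodes the second chain of collagen I, the main cable-forming collagen. The NMJ arrays gave values of 8.45, 8.39 and 8.36 and the non-NMJ arrays 6.54, 6.67 and 6.59, a 3.48-fold difference (log2 1.80 ± 0.08, SE, n = 3 per region, limma adjusted p = 6.85e-05). Col1a1, the partner chain, stood at 7.83, 7.85 and 7.86 against 6.74, 6.65 and 6.74, a 2.20-fold difference (1.14 ± 0.08, SE, adjusted p = 2.96e-04). The groups were far apart for both chains, by many times the spread within a region.

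Col3a1 encodes collagen III, which forms thin fibrils with collagen I in soft tissue. It gave 8.02, 8.07 and 8.00 in NMJ regions and 6.90, 6.89 and 6.75 in non-NMJ regions, 2.27-fold higher (1.18 ± 0.08, SE, adjusted p = 3.49e-04). Collagen V sits inside collagen I fibrils and limits their width. Its gene Col5a2 gave 6.60, 6.72 and 6.45 against 5.10, 5.14 and 5.09, 2.80-fold higher (1.48 ± 0.10, SE, adjusted p = 2.48e-04). In all of these the lowest NMJ array lay above the highest non-NMJ array. The other collagen V genes had smaller differences, 0.54 ± 0.09 (SE, adjusted p = 0.00905) for Col5a3 and 0.40 ± 0.10 (SE, adjusted p = 0.0386) for Col5a1. Col5a1 was not called after median centring (adjusted p = 0.119) or quantile normalization (0.477), nor in any fit that left out an array (0.0516 to 0.138), and Col5a3 was not called after quantile normalization (0.0614).

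All 6 genes of collagens I, III and V were thus called, but 1 of the other 5 fibrillar genes was. That was Col11a1, of a collagen best known from cartilage fibrils, with a log2 difference of 0.69 ± 0.10 (SE, adjusted p = 0.00413) and values of 4.09 to 4.15 against 3.29 to 3.53, all below the arrays' medians. Its partners in cartilage, Col11a2 and Col2a1, had differences of -0.18 and -0.15 (adjusted p = 0.394 and 0.358), with 95% confidence intervals from -0.50 to 0.14 and from -0.41 to 0.10. Col27a1, another fibrillar collagen of cartilage, stood at 0.01 (interval -0.25 to 0.27). Col24a1 had the lowest difference of all 39 genes, -0.26 ± 0.09 (SE, adjusted p = 0.091), at values of 2.08 to 2.25 against 2.35 to 2.49, and it was called lower after median centring (adjusted p = 0.0232).

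**Figure D2:**
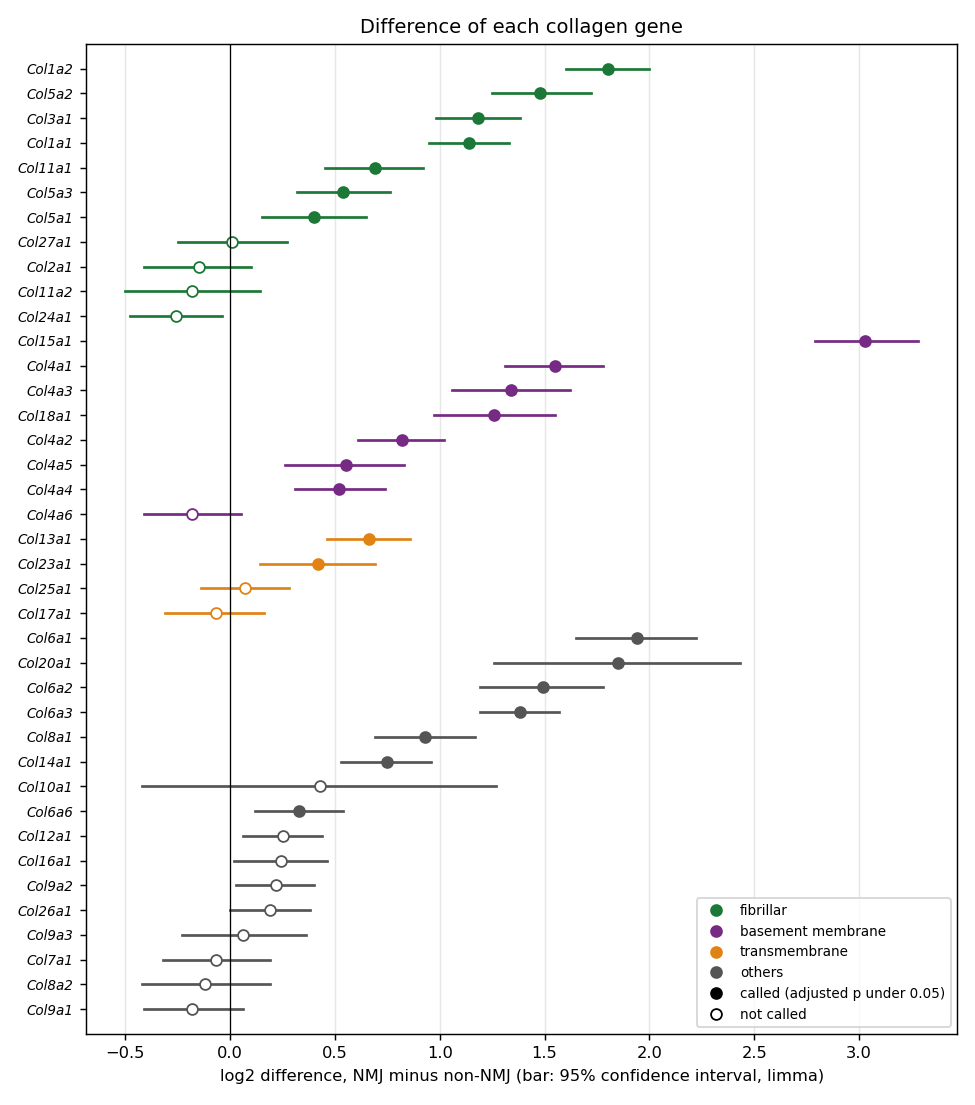
Log2 difference, NMJ minus non-NMJ, of each collagen gene, with its 95% confidence interval from limma (bar), coloured by class, filled where called and open where not. Col15a1 stands at 3.03, and the next is Col6a1 at 1.94. The 16 open points lie between -0.26 and 0.43, 8 on each side of 0.

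The basement membrane class had the highest median of the 4 classes, 1.04, with 7 of 8 genes higher and 0 lower. That order depends on how classes are drawn. Collagen IV alone had a median of 0.68, and Col15a1 and Col18a1 together 2.15. The 6 genes of collagens I, III and V had 1.16, and the 4 of collagen VI 1.43. Whether classes differ was not tested. Col15a1 encodes collagen XV, a proteoglycan that links the basement membrane to the fibrils around it, and mice without it develop a muscle disease. The NMJ arrays stood at 8.91, 8.97 and 8.86 and the non-NMJ arrays at 6.03, 5.83 and 5.77. The 8.19-fold difference (log2 3.03 ± 0.10, SE, adjusted p = 2.37e-05) was the largest among the 39 genes. Col18a1, its closest relative and the source of endostatin, gave 6.19, 5.91 and 6.20 against 4.70, 4.93 and 4.88, 2.40-fold higher (1.26 ± 0.12, SE, adjusted p = 9.92e-04). Both genes had separate groups, with NMJ arrays on top.

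Collagen IV had 5 of 6 genes higher. Col4a1 and Col4a2 make the network present in basement membranes throughout the body. Col4a1 gave 8.14, 8.02 and 7.93 in NMJ regions and 6.49, 6.56 and 6.40 in non-NMJ regions, 2.92-fold higher (1.55 ± 0.10, SE, adjusted p = 2.08e-04). Col4a2 gave 6.78, 6.79 and 6.78 against 6.06, 5.95 and 5.89, 1.76-fold higher (0.82 ± 0.08, SE, adjusted p = 0.00138). Neither gene had overlapping groups.

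The opening named 3 collagen IV genes for the synaptic cleft, a list that need not be complete. Of these, Col4a3 gave 5.92, 5.95 and 5.99 against 4.73, 4.39 and 4.70, 2.54-fold higher (1.34 ± 0.12, SE, adjusted p = 7.00e-04). Col4a4 gave 5.00, 4.89 and 5.02 against 4.38, 4.53 and 4.43, 1.44-fold higher (0.52 ± 0.09, SE, adjusted p = 0.00832). Col4a5 gave 4.33, 4.17 and 4.26 against 3.81, 3.50 and 3.80, 1.46-fold higher (0.55 ± 0.12, SE, adjusted p = 0.0193). The groups of these 3 genes did not overlap, but Col4a5 lay below the arrays' medians and was not called after median centring (adjusted p = 0.0503) or without NMJ replicate 1 (0.0782) or 3 (0.0619). Col4a6, the partner of Col4a5 in the basement membranes of skin and smooth muscle, gave 2.89, 2.76 and 2.96 against 3.15, 2.99 and 3.02, a difference of -0.18 ± 0.10 (SE, adjusted p = 0.238, interval -0.41 to 0.05). Its NMJ arrays were all lower, at signals where the level over background is unknown. The largest differences in collagen IV were those of Col4a1 and Col4a3, and their 95% confidence intervals, 1.31 to 1.78 and 1.06 to 1.62, overlapped.

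Collagen IV genes occur as pairs that start next to each other and read in opposite directions, and in every pair the first gene differed more than the second. The value of Col4a1 minus that of Col4a2 was 1.36, 1.23 and 1.15 in NMJ regions and 0.43, 0.61 and 0.51 in non-NMJ regions, so the difference of Col4a1 was 0.73 larger on the log2 scale. Col4a3 minus Col4a4 was 0.92, 1.06 and 0.97 against 0.35, -0.14 and 0.27, a change of 0.82. Col4a5 minus Col4a6 was 1.43, 1.40 and 1.30 against 0.66, 0.51 and 0.78, a change of 0.73. The NMJ arrays lay above the non-NMJ arrays in all 3 pairs. The exact two-sided permutation test gave p = 0.1 for each pair, the smallest that 3 arrays against 3 allow, and 0.1 after adjustment over the 3 pairs. These pairs share no genes but share all 6 arrays. The fold between regions within a pair depends on how each row's probes respond, which was not tested.

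**Figure D3:**
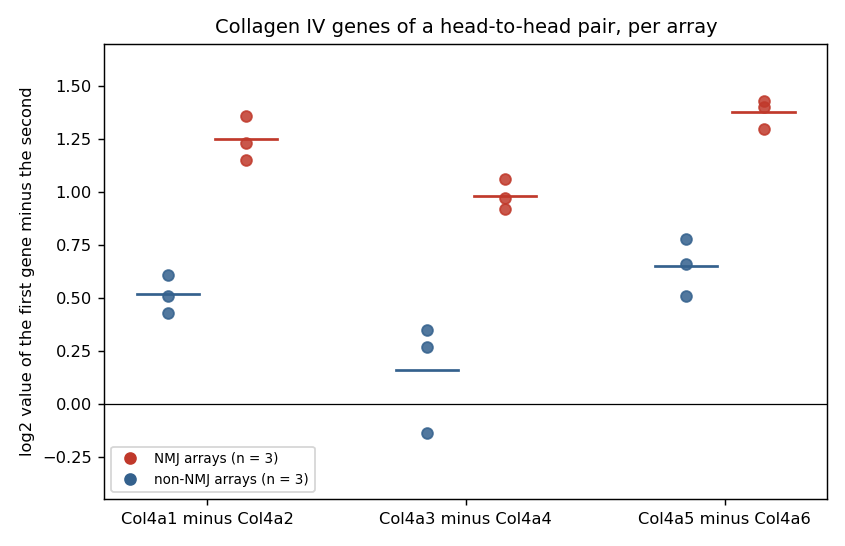
Log2 value of the first gene of each collagen IV pair minus that of the second on each array, with NMJ arrays in red, non-NMJ arrays in blue and lines at the means (n = 3). The height of a point has no meaning of its own because probes differ, and the gap between the colours is the difference between regions, 0.73, 0.82 and 0.73.

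The transmembrane class had 2 of 4 genes higher, where 14.4% of all rows were, too few genes to read as a result about the class. Its median log2 difference was 0.24, which was 0.10 after median centring and 0.02 after quantile normalization. Col13a1, the collagen of the muscle membrane at the junction, gave 5.69, 5.76 and 5.76 in NMJ regions and 5.12, 5.00 and 5.10 in non-NMJ regions, 1.58-fold higher (0.66 ± 0.08, SE, adjusted p = 0.00257). Its groups were separate, and it was called in every alternative fit with the same threshold, though it lay under 2-fold. Col23a1 had a difference of 0.42 ± 0.11 (SE, adjusted p = 0.0458) that was not called after median centring (adjusted p = 0.114), quantile normalization (0.328) or with a replicate block (0.0787), nor without any array other than non-NMJ replicate 1 (0.093 to 0.144). Col25a1, needed in muscle for motor axons to enter it during development, gave 4.82, 4.77 and 4.75 against 4.66, 4.65 and 4.81, a difference of 0.07 ± 0.09 (SE, adjusted p = 0.615, interval -0.14 to 0.28). Its groups overlapped. Col17a1, a collagen of the skin's anchoring junctions, had a difference of -0.07 (interval -0.31 to 0.16).

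Among the other 16 collagens 7 rose, 0 fell and 9 were not called, with a median log2 difference of 0.29, which was 0.15 after median centring and 0.58 without the dimmest 50% of rows. Collagen VI forms beaded filaments next to the basement membrane of muscle fibres, and its loss causes human muscle disease. Col6a1 gave 7.93, 7.95 and 7.69 in NMJ regions and 6.04, 5.93 and 5.79 in non-NMJ regions, 3.82-fold higher (1.94 ± 0.12, SE, adjusted p = 1.86e-04). Col6a2 gave 8.35, 8.10 and 8.05 against 6.61, 6.60 and 6.83, 2.81-fold higher (1.49 ± 0.12, SE, adjusted p = 5.63e-04). Col6a3 gave 7.22, 7.26 and 7.22 against 5.88, 5.90 and 5.79, 2.61-fold higher (1.38 ± 0.08, SE, adjusted p = 1.50e-04). The groups of these chains, which assemble together, were separate for each gene. Col6a6, a chain that can take the place of the Col6a3 product, gave 3.65, 3.68 and 3.81 against 3.43, 3.34 and 3.38, all below the arrays' medians. Its groups were separate, but the difference of 0.33 ± 0.09 (SE, adjusted p = 0.0384) was smaller and was not called in any fit that left out an array (adjusted p = 0.0715 to 0.111), with a replicate block (0.072), after median centring (0.158) or with an intensity trend (0.0678).

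Fibril-associated collagens sit on the surface of fibrils, and 2 of 7 rose, where 14.4% of all rows did. Of the 4 whose mean lay above the median row 1 rose, where 23.7% of such rows did. The count is therefore no result about this group. Col20a1 gave 8.59, 8.43 and 8.67 in NMJ regions and 6.55, 6.34 and 7.26 in non-NMJ regions, 3.59-fold higher (1.85 ± 0.24, SE, adjusted p = 0.0033). Non-NMJ replicate 3 was higher than the other two, so the spread of its non-NMJ group was 0.48 (SD), but the groups did not overlap. Col14a1, found on collagen I fibrils, had a difference of 0.75 ± 0.09 (SE, adjusted p = 0.00239), with a non-NMJ mean of 3.93, below the arrays' medians. Col12a1, another collagen of fibril surfaces, had one of 0.25 (adjusted p = 0.0676) and was called in 4 alternatives, at adjusted p-values from 0.0367 to 0.0484. Col16a1 stood at 0.24 (adjusted p = 0.119), and Col9a1, Col9a2 and Col9a3, which coat cartilage fibrils, at -0.18, 0.22 and 0.06.

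Of the short-chain collagens, which form hexagonal nets, Col8a1, known from vessel walls, rose by 0.93 ± 0.10 (SE, adjusted p = 0.00151), and its partner Col8a2 had a difference of -0.12 (adjusted p = 0.564). Col10a1, of hypertrophic cartilage, had one of 0.43 with the widest interval of the 39 genes, -0.42 to 1.27. Its NMJ replicate 3 stood at 4.88 and the other two at 3.82 and 3.64. Col7a1, the anchoring fibril of skin, and Col26a1 stood at -0.07 and 0.19. In total 7 of the 16 collagens that were not called had means below the medians of all 6 arrays.

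Rows of chains that assemble together did not all have equal differences. The fold of a row also depends on how its probes respond, which was not tested, so these are not differences in amounts of chains. In collagen VI the 3 chains lay between 1.38 and 1.94. In collagen I they were 1.14 and 1.80, and in collagen V from 0.40 to 1.48. Col3a1 and Col5a2 are neighbours on the chromosome in the RefSeq order, as are Col4a1 and Col4a2, and had differences of 1.18 and 1.48. Among these genes only the collagen IV pairs were tested against each other.

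Genes that make, process, break down or bind collagens were taken from 5 lists. Together 78 had a row, of which 48 rose and 5 fell, against 14.4% and 8.63% of all rows. Listed genes without a row included Serpinh1, Mia3, Lox, Pcolce, Adamts2 and Itga1. The enzymes and chaperones that fold and hydroxylate chains in the endoplasmic reticulum had the highest median of the 5 lists, 1.16, with 17 of 20 higher and 1 lower. P3h2, a prolyl 3-hydroxylase that acts on collagen IV, was 10.29-fold higher (log2 3.36 ± 0.10, SE, adjusted p = 1.77e-05), from a mean of 5.35 ± 0.13 in non-NMJ to 8.71 ± 0.07 in NMJ regions (SD, n = 3). P4ha1, the catalytic subunit of prolyl 4-hydroxylase, was 4.28-fold higher (2.10 ± 0.10, SE), Pdia3, a disulfide isomerase of general use, 4.03-fold, and Plod3, a lysyl hydroxylase that also adds sugars, 2.28-fold. The gene that fell was Tmem38b, a channel of the endoplasmic reticulum also active in muscle, by 1.15 on the log2 scale. P4ha3 and Colgalt1 were not called.

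Of 11 genes for the export of cargo from the endoplasmic reticulum, 4 rose and 1 fell, with a median of 0.24. Sec24d and Sec23b, coat proteins of export vesicles, had differences of 1.14 ± 0.11 and 0.83 ± 0.15 (SE), Tfg, which organises exit sites, had 0.41, and Sar1b, the GTPase that starts the coat, fell by 0.44. The count that rose was 2 after median centring and without NMJ replicate 1 or 2 or non-NMJ replicate 1, and Tfg was not called in these 4 fits (adjusted p = 0.0512 to 0.071). The list's median was 0.10 after median centring and 0.05 after quantile normalization. Of 15 genes for propeptide removal, cross-linking and fibril assembly 9 rose and 1 fell, with a median of 0.43 that was 0.21 after quantile normalization. In this list 6 rose without NMJ replicate 1, and 7 without NMJ replicate 2 or after quantile normalization. Loxl3 and Loxl2, oxidases that cross-link chains, rose by 1.17 ± 0.09 and 0.91 ± 0.10 (SE), Sparc, a collagen-binding matrix protein, by 1.12 ± 0.08 (SE) and Tgfbi, another, by 1.01. Pcolce2, an enhancer of propeptide cleavage, was the gene that fell, by 0.75.

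Of 18 proteases and inhibitors of breakdown 8 rose, 1 fell and 9 were not called, against 14.4% higher and 8.63% lower of all rows. Their median was 0.27, which was 0.13 after median centring and 1.10 without the dimmest 50% of rows. Mmp16, a membrane-bound protease, was 4.99-fold higher (2.32 ± 0.13, SE, adjusted p = 1.38e-04), and Ctsk, the collagen-cleaving cathepsin, 3.43-fold. The inhibitors Timp2 and Reck were 3.25-fold and 3.23-fold higher, and Timp4, an inhibitor of muscle and heart, fell by 0.54. Of 14 receptors 10 rose and 1 fell, with a median of 0.68. Adgrg6, a receptor of Schwann cells that binds collagen IV, was 3.91-fold higher (1.97 ± 0.12, SE, adjusted p = 1.70e-04). Itga2, a collagen-binding integrin chain, and Ptprf, a receptor phosphatase, were 3.15-fold and 2.11-fold higher. The non-NMJ means of Mmp16, Ctsk, Adgrg6, Itga2 and Ptprf were 3.73, 3.98, 3.28, 3.16 and 4.22. These lay below the arrays' medians, so the size of their folds is uncertain. Cd36, a fatty acid carrier of endothelium and muscle that can bind collagen, fell by 1.45. Ddr1, a collagen receptor of epithelia, had a difference of -0.01 ± 0.08 (SE, adjusted p = 0.95), but was called lower after quantile normalization (-0.27, adjusted p = 0.047).

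**Figure D4:**
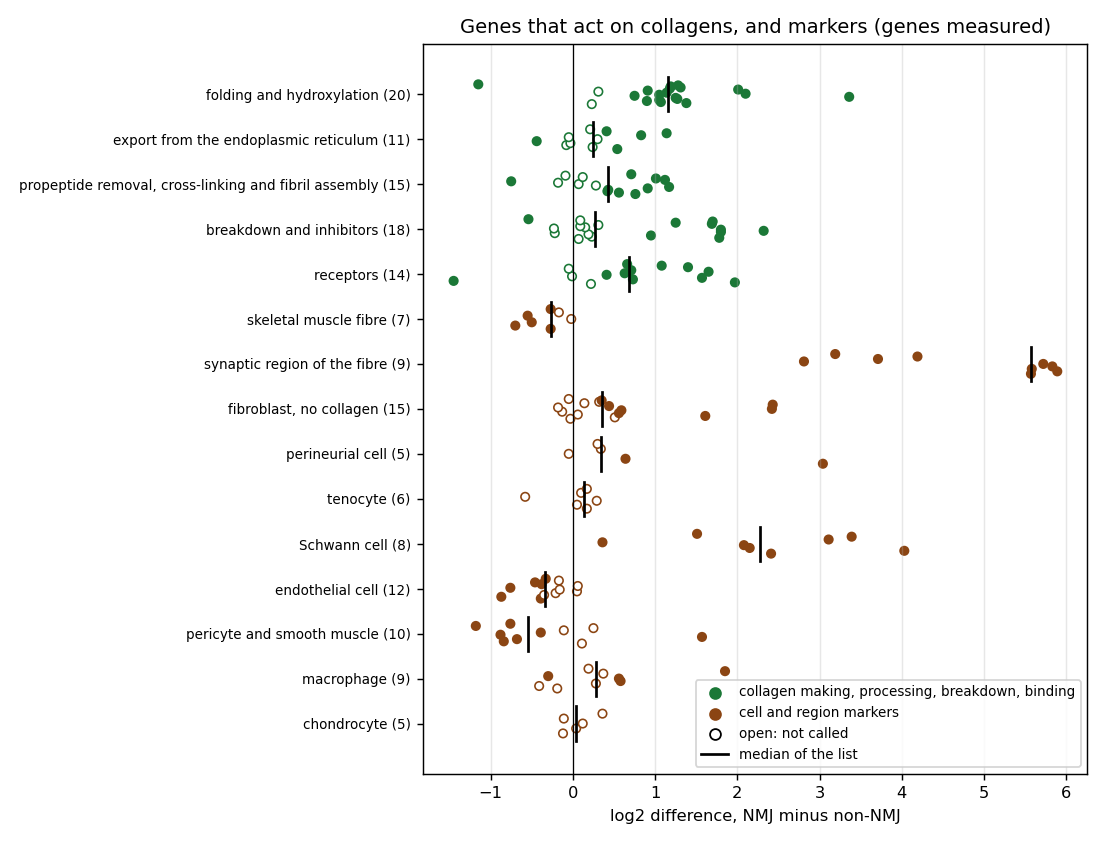
Log2 difference, NMJ minus non-NMJ, of the genes in 5 lists that act on collagens (green) and 10 marker lists (brown), filled where called and open where not, with a black line at each median and the number of measured genes in brackets. The median of the folding and hydroxylation list is 1.16, that of the fibroblast markers 0.35 and that of the Schwann cell markers 2.28.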

How the data were processed

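The authors deposited 1 table of log2 values, made with RMA in Affymetrix Expression Console and Transcriptome Analysis Console, per the submitters' processing notes. The sources used here do not name a version, a setting or a genome build. Values ran from 0.87 to 13.97, a range that fits a log2 scale. Per the labels' protocols, cDNA was amplified from 10 ng of RNA. RMA compresses differences at very low and very high signal. The number of arrays limits the precision.

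Rows were named from the platform annotation, which gave 14996 rows exactly 1 symbol. Regions were compared with limma 3.58.1 (R 4.3.3; lmFit and eBayes, no covariates) over all 23332 rows, with Benjamini-Hochberg adjustment over all of them. Calls needed an adjusted p under 0.05. Class and list counts come from that fit, and no list was tested. Pair differences had an exact permutation test (scipy 1.17.1). The limma step was tested on simulated data.

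The members and lists were chosen with earlier results of these data known. Values on every array are given for called members at least 2-fold apart, for collagen IV and VI, Col13a1 and Col25a1. Up to 4 genes per list were named by smallest unadjusted p. Genes named as exceptions were picked after their values were seen. Alternative fits used median centring, quantile normalization, a replicate block, array weights, another variance model, fewer rows (bright or named), a 2-fold threshold, another basement membrane class and the omission of each array. Protein sequences were not used here.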

Additional observations from a re-analysis of the deposited data

How the results depend on the processing

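Of the 23 collagen genes called higher, 18 were called in all 14 alternative fits that tested them, and Col4a5, Col5a1, Col5a3, Col6a6 and Col23a1 were not. Col9a2, Col12a1 and Col24a1, not called at first, were called in at least 1. The count of higher genes was 19 after median centring, which moved the median of all rows to -0.15, 21 after quantile normalization and 19 to 21 with an array left out. No collagen that was called in any fit changed sign. After median centring 1 collagen was called lower, Col24a1, which is also the 1 fibrillar gene lower there. With calls limited to 2-fold, 12 collagens were higher, 4 fibrillar, 4 basement membrane, 0 transmembrane and 4 others, and of the genes that act on collagens 30 were higher and 2 lower. The transmembrane count was 1 after median centring, after quantile normalization and with the replicate block, and 1 to 2 with an array left out (2 only without non-NMJ replicate 1), since Col23a1 was lost. With collagen IV alone as basement membrane 5 genes of that class were higher. The changes within collagen IV pairs were 0.68 to 0.78, 0.67 to 0.91 and 0.66 to 0.79 with an array left out. No gene had several rows, so the choice of row changed nothing. The replicate block left 21 collagens higher. Same-numbered arrays shared deviations from their region means with correlations of 0.05, 0.04 and 0.18, and NMJ replicate 2 correlated best with another number. Such deviations cancel within a region, so these correlations cannot decide whether the numbers pair the samples. The labels state no pairing, and the main fit used none. Rows near or below the arrays' medians limit what can be said of genes such as Col4a4, Col4a5, Col4a6, Col6a6, Col11a1, Col14a1 and Col24a1. The same holds for the non-NMJ levels of Adgrg6, Cldn1, Ctsk, Itga2, Mmp16 and Ptprf. The causes of these changes were not tested.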

Other observations

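Other proteins carry a collagen-like stretch without being counted as collagens, and a list of their genes was written after the collagen values were seen. Of 32 with a row, 5 were higher in NMJ regions, 2 were lower and 25 were not called by limma, with a median log2 difference of 0.04. These shares are near those of all rows, 14.4% higher and 8.63% lower, so the counts are no result about the list, and 2 to 4 were higher with an array left out. Gldn encodes gliomedin, a collagen-like protein that Schwann cells place at nodes of Ranvier, and was 2.53-fold higher (log2 1.34 ± 0.10, SE, n = 3 per region, limma adjusted p = 3.69e-04). Colec12, a scavenger receptor with a collagen-like stalk, rose by 0.94 ± 0.14 (SE, adjusted p = 0.00508). C1qtnf9, a secreted relative of adiponectin, fell by 1.41 ± 0.14 (SE, adjusted p = 0.00105), and C1qtnf4 fell by 0.67 ± 0.08 (SE, adjusted p = 0.00231). The other three that rose were C1qc, a complement chain, by 0.58, C1ql1 by 0.84 and Emilin1, of elastic fibres, by 0.29. Each of these was not called in at least 4 of the fits that left out an array.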
